A study of Anguilla anguilla with 15 samples.

Results

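The transcripts described here were chosen by their measured log2 ratio to a pool of wild eel gonads, as the contigs that averaged 1 or more in gonads from Gironde and also 1 or more in gonads from Certes. There were 217 such contigs among the 992 on the array (21.9%), and they are called the listed contigs below. A contig is an assembled transcript sequence that is represented by its own spots on the array. The base of the logarithm is not stated and was assumed to be 2, so that a value of 1 is a 2-fold excess over the pool. Because the site means made the choice, the levels are given as a description and were not tested.

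The animals were female European eels (Anguilla anguilla) from 2 sites on which the series' design text reports, 7 samples from Gironde, which it calls contaminated, and 8 from Certes, which it calls clean. The series' title places them in artificial gonad maturation, while its design text calls them wild, and the labels give no treatment, age or stage for single animals. Each gonad cDNA was labelled with Cy3 and hybridised with the Cy5-labelled cDNA of 1 common pool, made from the gonads of 30 wild Certes eels, so both sites carry the same pool and the same dye orientation. A preference of a dye for a contig therefore enters every level. Samples carry different codes, but the labels do not say in words that each is a different eel, and the p-values below can only be read against the spread among samples, which may be partly technical.

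European eels leave for their spawning migration with ovaries at an early stage, and maturation stays blocked until hormones of the pituitary act on the gonad. In artificial maturation this block is overcome with injected hormone preparations. The oocytes then take up yolk precursors made in the liver, while the follicle cells around them make steroids and the oocyte builds its envelope, and the transcripts of the ovary change with each of these stages. Which of these processes the listed contigs belong to cannot be said here, since the data tables hold contig identifiers without gene names, and 0 of the 992 identifiers occur among the 31451 genes of the eel reference annotation (fAngAng1.pri). The identity of the tissue could for the same reason not be checked against marker genes. Contigs are therefore named by their identifiers, with no role.

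The table does not state the direction of the ratio. Sample over pool is the likely reading, because contigs with a bright pool had low ratios (Spearman's rho -0.35 between the pool's foreground on slide 1 and the mean log ratio across 992 contigs, which are not independent). Read the other way, the listed contigs would lie below the pool, differences between the sites would change sign, and their sizes, SDs, correlations and p-values would stay.

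Levels among the listed contigs were mostly moderate, with a few far above the pool. The mean of the site means had a median of 2.01 over the listed contigs, with quartiles at 1.53 and 2.79 and the highest at 5.90. Of the 217 contigs, 17 were at 4 or more, 30 between 3 and 4, 65 between 2 and 3, and 105 under 2. Of the 3213 measured values, 2919 (90.8%) were at 1 or more, and 19 values were below 0. The choice by site means favours such a share by itself. All gonads with a value stood at 1 or more for 112 contigs and above 0 for 202, and 15 contigs had at least 1 gonad below the pool.

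The contig with the highest mean was also one of the least even among gonads. contig_20405 stood at 6.69, 4.74, 4.59, 1.14, 5.15, 7.66 and 4.76 in Gironde gonads 1 to 7, against 6.72, 6.91, 7.26, 7.30, 6.48, 6.81 and 6.74 in Certes gonads 1 to 7 and 6.53 in Certes gonad 8. The Certes gonads lay within 0.82 of each other, while Gironde gonad 4 was far below and Gironde gonad 6 above all others. Gironde gonad 1 lay in the Certes range and the 4 remaining Gironde gonads below it.

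Next in level were contig_27016 and contig_20806, which were steadier. contig_27016 ranged from 4.93 to 6.03 around a median of 5.88 in Gironde, against 4.39 to 5.70 around 5.01 in Certes. contig_20806 ranged from 4.56 to 6.72 around 5.22 in Gironde, against 3.92 to 5.65 around 5.10 in Certes. The ranges overlapped for both contigs, but Gironde gonads 2, 3, 4, 6 and 7 lay above every Certes gonad for contig_27016, with a difference of 0.63 (limma, adjusted p = 0.354), and Gironde gonads 2, 3 and 6 for contig_20806, with a difference of 0.61 (limma, adjusted p = 0.525). Among the others of the 10 highest, contig_18503 averaged 4.73 ± 0.53 (SD, n = 7) in Gironde, against 4.66 ± 0.62 (SD, n = 8) in Certes, and contig_16999 averaged 4.53 ± 0.48 in Gironde and 4.61 ± 0.46 in Certes. contig_18408 was at 4.70 ± 0.53 in Gironde and 4.31 ± 0.63 in Certes. For these 3 contigs the difference between the site means was smaller than the SD of either site.

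Among the 10 highest, contig_2643 and contig_9728 had empty cells, that is, arrays without a value. contig_2643 was measured in 5 of 7 Gironde gonads, from 4.30 to 8.87, against 7 of 8 Certes gonads, from 2.21 to 6.10. contig_9728 was measured in 5 Gironde gonads, of which Gironde gonad 2 stood at 8.27 and the others between 4.17 and 4.68, against 8 Certes gonads, of which Certes gonad 4 stood at 9.99 and the others between 1.94 and 5.56. The mean of contig_9728 in each site thus rested in part on 1 gonad. contig_39253 ranged from 3.48 to 6.31 in Gironde and from 1.65 to 5.28 in Certes, and contig_33263 from 3.90 to 6.00 in Gironde and from 2.59 to 4.73 in Certes.

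**Figure D1:**
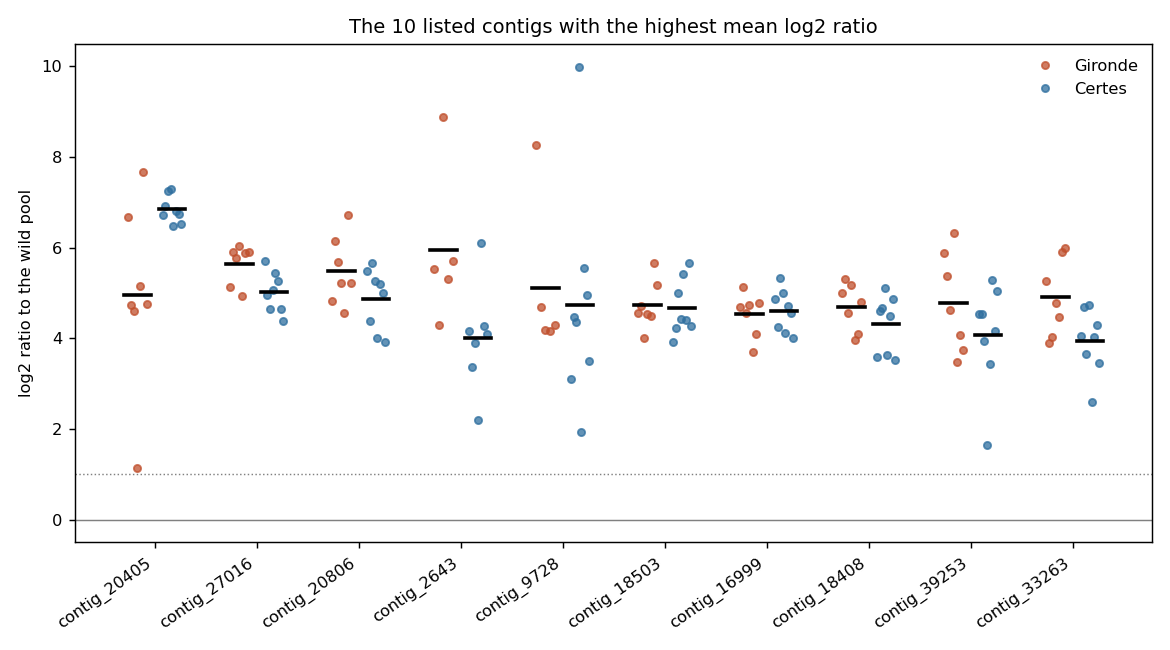
Log2 ratio to the wild pool (vertical axis) of the 10 listed contigs with the highest mean of the site means, 1 dot per gonad, Gironde left and Certes right, with the site mean as a black bar, the pool at the solid line and the choosing threshold of 1 at the dotted line. Certes gonads of contig_20405 lie close together near 6.84, while Gironde gonads reach from 1.14 to 7.66.

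The pool itself was dim for nearly all listed contigs. Its brightness was read in the Cy5 channel of slide 1 as the foreground of a contig (median of 3 spots) divided by that of the dimmest contig on the slide. This ratio had a median of 1.55 over the listed contigs, against 1.81 over all contigs. It was under 3 for 213 of the 217 listed contigs (98.2%), against 792 of all 992 (79.8%), and under 2 for 187 listed contigs (86.2%), against 583 of all (58.8%). None of the 10 highest contigs reached 3 (0 of 10). The pool stood at 1.64 times the dimmest contig for contig_20405, at 1.27 times for contig_2643 and at 1.18 times for contig_9728. No background was taken off in this measure, and how the authors treated the background is unknown here. The part of the pool's brightness in the choice of these contigs was not tested. Since the pool is the denominator of every ratio, a dim pool and a high ratio are not independent measures.

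**Figure D2:**
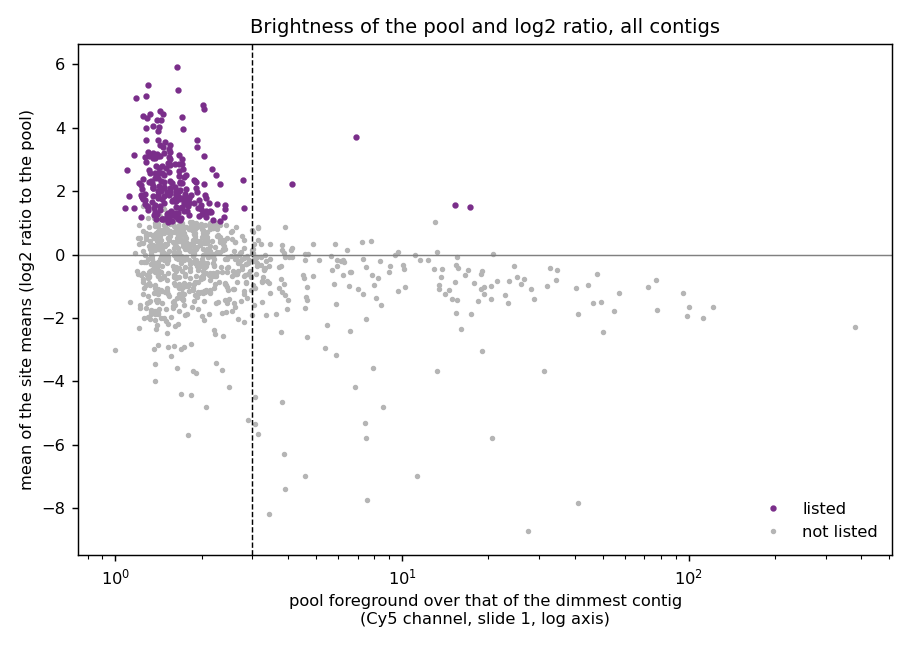
Foreground of the pool in the Cy5 channel of slide 1 over that of the dimmest contig (horizontal, log axis) against the mean of the site means on the log2 scale (vertical), 1 dot per contig, listed contigs in purple and the others in grey. Of the 217 listed contigs 213 lie left of the dashed line at 3.

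For 4 listed contigs the pool was at least 3 times as bright as the dimmest contig, a limit set after the values were seen. contig_23669 had the brightest pool, at 17.3 times, and averaged 1.27 ± 0.59 (SD, n = 7) in Gironde against 1.71 ± 0.39 (SD, n = 8) in Certes. contig_26223, at 15.3 times, averaged 1.43 ± 0.30 in Gironde and 1.71 ± 0.36 in Certes. Both thus stood above the pool although the pool was brighter there than for most contigs of the array. contig_25111, at 4.12 times, averaged 2.22 ± 0.52 in Gironde and 2.23 ± 0.30 in Certes.

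The remaining one, contig_23259, whose pool was at 6.91 times the dimmest contig, was uneven among Gironde gonads. It stood at 4.88, 1.07, 1.45, 4.54, 1.83, 5.25 and 2.49 in Gironde gonads 1 to 7, against 3.22, 4.76, 4.29, 5.12, 3.56, 4.02 and 5.00 in Certes gonads 1 to 7 and 4.66 in Certes gonad 8. Gironde gonads 1, 4 and 6 lay in or just above the Certes range, and Gironde gonads 2, 3, 5 and 7 below every Certes gonad. On the arrays of Gironde gonads 2, 3 and 7 the log ratios of all contigs were also the widest of the 15 arrays, with median absolute deviations (MAD) of 1.26, 1.16 and 1.18, against 0.83, 0.90, 1.00 and 0.98 for Gironde gonads 1, 4, 5 and 6 and 0.76 to 1.10 in Certes. The part of array width in this pattern was not tested. With every array scaled to the same MAD the mean of contig_23259 was lower in Gironde by a larger amount, -1.61 on the log2 scale, against -1.26 as deposited.

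The threshold divides contigs that differ little. Nearest above it were contig_40537, at 1.09 in Gironde and 1.00 in Certes, contig_30515, at 1.32 in Gironde and 1.01 in Certes, and contig_33277, at 1.24 in Gironde and 1.01 in Certes. Nearest below it were contig_38908, at 1.00 in Gironde and 0.999 in Certes, contig_27263, at 1.08 in Gironde and 0.99 in Certes, and contig_24845, at 1.86 in Gironde and 0.97 in Certes. Of the 252 contigs at 1 or more in Gironde, 86.1% were listed, and of the 224 at 1 or more in Certes, 96.9%. The order of levels was similar in both sites, with Spearman's rho of 0.90 and Pearson's r of 0.91 between the site means across the listed contigs, which share the pool and its dye.

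The spread of a listed contig among gonads was larger than that of the typical contig of the array. The SD among Gironde gonads had a median of 0.54 over the listed contigs, against 0.48 over all contigs, and the SD among Certes gonads a median of 0.51, against 0.43. The 199 contigs at least as far below the pool in both sites were similar in this, with medians of 0.56 in Gironde and 0.48 in Certes, so the wider spread was not seen in the listed contigs alone. Pooled within sites, 30 listed contigs (13.8%) had an SD over 1, against 7.76% of all contigs, and 17 (7.83%) had one under 0.3, against 14.5% of all. Spread grew with level: the median pooled SD was 0.89 for the contigs at 4 or more, 0.64 between 3 and 4, 0.56 between 2 and 3 and 0.47 under 2 (Spearman's rho 0.38 across listed contigs). It also followed the pool's brightness, with a rho of -0.60 between pooled SD and brightness, so contigs with a dimmer pool varied more. For the 46 listed contigs above the median brightness of the array, the median SDs were 0.40 in Gironde and 0.38 in Certes. The SDs of all contigs at this brightness were not compared.

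Which contigs varied more was partly shared by the sites, with a rho of 0.67 between the Gironde and Certes SDs across listed contigs. The Gironde SD was the larger one for 139 listed contigs (64.1%), against a background of 63.5% of all contigs, so the listed contigs did not stand apart in this. The Gironde SD was at least 2 times the Certes SD for 17 listed contigs (7.83%, against 10.2% of all contigs), and the reverse held for 3 (1.38%, against 2.62%).

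Among the listed contigs with a value on all arrays, contig_6064 and contig_26012 had the largest pooled SDs (1.89 and 1.77), with single gonads far from the rest. contig_6064 stood at -3.37 in Gironde gonad 3 and between 2.67 and 4.18 in the other Gironde gonads, against 1.66 to 4.73 in Certes. contig_26012 stood at -3.43 in the same Gironde gonad 3 and between 2.05 and 2.84 in the other Gironde gonads, against -1.34 in Certes gonad 1 and 1.34 to 2.48 in the other Certes gonads. In both contigs 1 gonad lay far below the pool while the others of its site lay above it. contig_20405, described above, was the third of the complete contigs by pooled SD (1.41), and its Gironde gonads were spread over several levels. Of the contigs with empty cells, 4 had a larger pooled SD than contig_20405: contig_7154 (2.22), contig_9728 (2.20), contig_17437 (1.44) and contig_2643 (1.41). contig_7154 and contig_17437 were named after their values were seen. contig_7154 was wide in both sites, from -0.002 to 6.91 in 6 Gironde gonads, against 1.53 to 7.80 in 8 Certes gonads. For both contig_6064 and contig_26012 the pool was under 2 times as bright as the dimmest contig.

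The steadiest listed contigs had narrow ranges in both sites. contig_12603 ran from 0.82 to 1.49 in Gironde, against 0.85 to 1.47 in Certes, with a pooled SD of 0.22. contig_16859 ran from 1.10 to 1.55 in Gironde, against 0.97 to 1.78 in Certes, with a pooled SD of 0.23. contig_33281 ran from 1.69 to 2.24 in Gironde, against 0.99 to 1.78 in Certes, also with a pooled SD of 0.23. The sites overlapped almost wholly for contig_12603 and contig_16859, and by 1 Certes gonad for contig_33281.

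**Figure D3:**
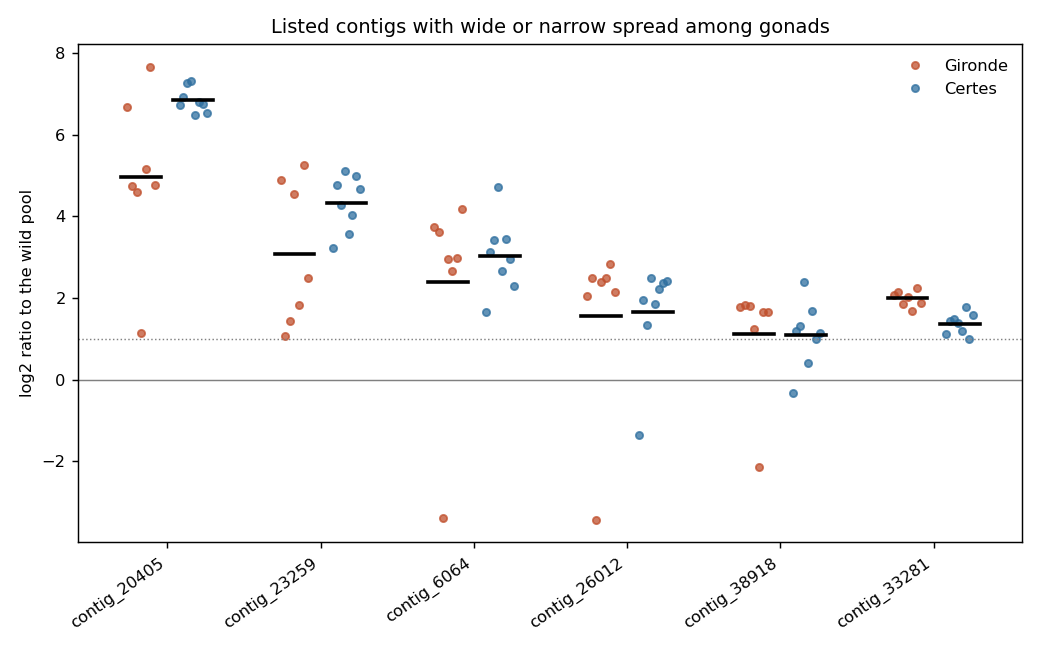
Log2 ratio to the wild pool (vertical axis) of 5 listed contigs with wide spread and of the steady contig_33281, 1 dot per gonad, Gironde left and Certes right, with the site mean as a black bar, the pool at the solid line and 1 at the dotted line. Gironde gonad 3 is the dot at -3.37 in contig_6064 and at -3.43 in contig_26012, and the 4 low Gironde dots of contig_23259 lie between 1.07 and 2.49.

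Array by array, the listed contigs moved up and down together to a small degree. The median over the listed contigs was 1.89, 2.38, 2.17, 2.15, 1.95, 2.21 and 2.26 in Gironde gonads 1 to 7, against 1.85, 1.94, 2.13, 2.21, 1.62, 2.25 and 1.85 in Certes gonads 1 to 7 and 1.69 in Certes gonad 8. The sites overlapped, and Certes gonad 5 was lowest and Gironde gonad 2 highest. Certes gonad 5 had 47 listed contigs under 1, more than any other array (7 to 29). Its width over all contigs, a MAD of 0.78, was among the lowest, and that of Gironde gonad 2, 1.26, was the highest, and the part of array width in these medians was not tested. Of the 42 empty cells of listed contigs, which fell on 26 contigs, 40 were on Gironde arrays, 21 of them on Gironde gonad 4 and 12 on Gironde gonad 6. Over all contigs, 107 of the 121 empty cells were on Gironde arrays. The arrays of Gironde gonads 4 and 6 also had the fewest values over all contigs, 953 and 965. Among the contigs not listed, 67 empty cells were on Gironde arrays and 12 on Certes arrays, against 40 and 2 for the listed contigs. Whether the empty cells of the listed contigs were more concentrated on single arrays was not tested. For all 26 listed contigs with an empty cell the pool was under 3 times as bright as the dimmest contig, as it was for 98.2% of all listed contigs. Contigs with an empty cell made up 12.0% of the listed contigs, against 7.16% of all contigs.

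Covariation was measured on the 191 listed contigs without empty cells, as Pearson's r between the deviations of 2 contigs from their site means over the 15 gonads. The median r over the 18145 pairs was 0.14, against -0.001 over the pairs of all 921 complete contigs, and 66.5% of the pairs were above 0, against 49.9%. Few pairs were strongly related: 322 listed pairs (1.77%) had an r over 0.7, against 1.42% of all pairs, and 27 (0.149%) had an r under -0.7, against 0.661%. With arrays scaled to an equal SD the median r of the listed pairs was 0.03, and with an equal MAD 0.15. The contigs at least as far below the pool in both sites (199) had a median r of 0.14 as well, so a small positive median was not seen in the listed contigs alone. All values share the arrays, the pool and the centring of each array on its median.

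**Figure D4:**
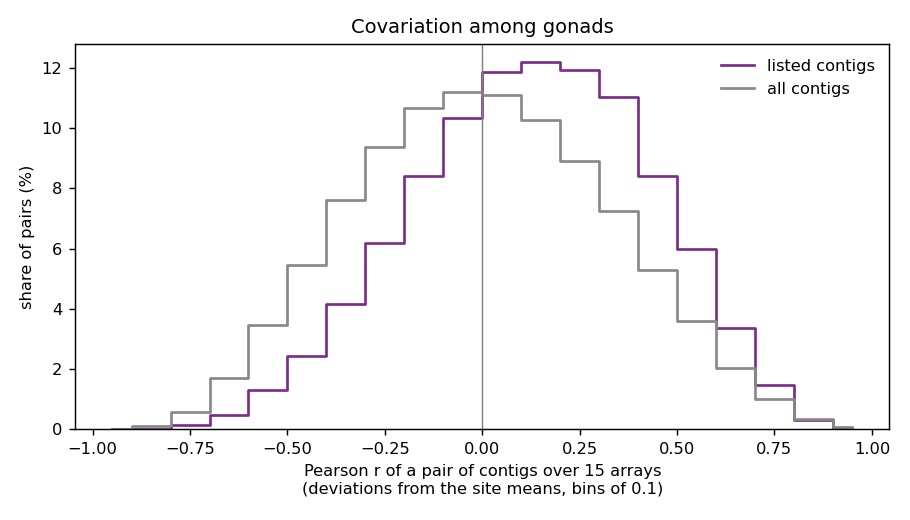
Share of contig pairs (vertical axis, percent) by their Pearson r over 15 gonads (horizontal axis, bins of 0.1), for the 18145 pairs of listed contigs in purple and all pairs of complete contigs in grey. The listed pairs centre on 0.14 and all pairs on -0.001, and both reach about as far to the right.

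The covariation of single pairs differed from site to site. Of the 636 listed pairs with an r over 0.8 among Certes gonads, 414 (65.1%) had an r above 0 among Gironde gonads, and 25 (3.93%) were over 0.8 there too, against 2.69% of all listed pairs. The median r in Gironde of those 636 pairs was 0.19, against 0.11 over all listed pairs. For all contigs of the array, 11.6% of the pairs over 0.8 in Certes were over 0.8 in Gironde as well. Across the listed pairs the correlations in Gironde and Certes were related with a Pearson r of 0.06, against 0.18 across all pairs. With 7 and 8 gonads a single r is imprecise.

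A few pairs were nevertheless closely related in both sites. Over all gonads an r over 0.9 was rarer among the listed pairs (3 pairs, 0.017%) than among all pairs (0.069%). The highest r belonged to contig_15540 and contig_592, at 0.93 over all gonads (Spearman's rho 0.93), 0.91 within Gironde and 0.94 within Certes. contig_15540 stood at 1.51, 2.45, 2.10, 1.52, 2.41, 2.13 and 1.68 in Gironde gonads 1 to 7, and contig_592 at 1.15, 1.80, 1.55, 1.08, 1.52, 1.70 and 1.31 in the same gonads. Both were lowest in Gironde gonads 1 and 4 and highest in gonad 2. Without the 2 gonads farthest from the median in contig_15540, Certes 5 and 6, their r was 0.90. contig_17916 and contig_18538 had an r of 0.92 (rho 0.85), and contig_10821 and contig_29123 one of 0.91 (rho 0.86). Next were contig_30736 with contig_4625 and contig_38668 with contig_39663, both at 0.88. Without the 2 gonads farthest from the median in the first-named contig, these 4 pairs kept r of 0.79 to 0.86. The pairs were picked for their r, so no test is given.

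The lowest correlations rested mostly on single gonads. contig_3906 and contig_6064 had an r of -0.82 but a rho of -0.33. Without Gironde gonads 3 and 5 their r was -0.35. Gironde gonad 3 had the highest value of contig_3906, 6.91, and the lowest of contig_6064, -3.37. contig_17947 and contig_20405 had an r of -0.79 and a rho of -0.40, and -0.41 without Gironde gonad 4 and Certes gonad 7. Gironde gonad 4 was again at opposite ends, at 5.82 in contig_17947 and 1.14 in contig_20405. The opposition of contig_4605 and contig_6839 was spread over more gonads, with an r of -0.80, a rho of -0.72 and an r of -0.76 without Gironde gonad 3 and Certes gonad 1.

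The first principal component of the deviations held 20.5% of their variance in the listed contigs, the second 16.1% and the third 13.1%, so no single axis dominated. Over all contigs with a value on every array the first held a similar share, 18.9%. Of the 191 contigs 162 (84.8%) loaded on the first in the same direction, a share that was not set against all contigs. Gonad scores on it were -2.51, 1.40, -0.84, 5.17, -5.57, 1.32 and 1.03 for Gironde 1 to 7, against -3.67, -0.18, 3.18, 6.88, -6.72, 4.46 and -1.90 for Certes 1 to 7 and -2.04 for Certes 8. High were Certes gonads 4 and 6 and Gironde gonad 4, and low were Certes gonad 5 and Gironde gonad 5. Among Certes arrays, the SD over all contigs was widest for gonads 4 and 6 (1.91 each) and narrowest for gonad 5 (1.52). Among Gironde arrays it was narrowest for gonad 5 (1.80), but widest for gonad 2 (2.18), which scored 1.40. The part of array width in these scores was not tested. The largest loadings were those of contig_39788 (0.22), contig_21940 (0.20), contig_38918 (0.19), contig_1365 (0.18) and contig_18763 (0.18), followed by contig_14628, contig_15464, contig_14918, contig_17916 and contig_22843 at 0.15 to 0.16. contig_39788 was at 6.75 in Gironde gonad 4 and 6.31 in Certes gonad 4, and at 2.56 in Certes gonad 5. Some of these contigs had a single far value in a gonad with a high or low score. contig_38918 was at -2.13 in Gironde gonad 5, contig_14918 at 5.90 in Gironde gonad 4 and contig_15464 at 1.42 in Certes gonad 5. The part of such values in the loadings was not tested. For all 10 the pool stood between 1.10 and 1.67 times the dimmest contig.

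Between the sites, none of the 217 listed contigs passed an adjusted p of 0.05 (0 contigs, limma with Benjamini-Hochberg adjustment over the 992 contigs), where 0.101% of all contigs passed. The lowest adjusted p among them was 0.143 (limma). At an unadjusted p of 0.05, 19 listed contigs were higher in Gironde, against a background of 4.54% of all contigs, and 2 were lower, against 5.14%. Together these 21 make up 9.68% of the listed contigs, the same share as the 9.68% of all contigs, so the listed contigs did not stand apart in number. In no listed contig did all Gironde gonads lie above or all lie below the Certes gonads (0 contigs, where 0.0% and 0.202% of all contigs were so separated).

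The direction of these differences depended on how the arrays were scaled. As deposited, 168 of the 217 listed contigs (77.4%) had the higher mean in Gironde, against 46.4% of all contigs. The median difference over the listed contigs was 0.19 on the log2 scale. The 199 contigs at least as far below the pool in both sites went the other way. Of these, 40 (20.1%) had the higher mean in Gironde, with a median difference of -0.23. With every array scaled to an equal MAD, 84 listed contigs had the higher Gironde mean (38.7%, median -0.09), and with an equal SD 85 (39.2%, median -0.07). Over all contigs the shares with the higher Gironde mean were then 45.7% and 45.5%. The counts at an unadjusted p of 0.05 likewise became 7 higher and 15 lower with an equal MAD, and 9 higher and 13 lower with an equal SD. Array widths differed between the sites: the MAD over all contigs was 1.04 ± 0.16 (SD, n = 7) on Gironde arrays, against 0.90 ± 0.11 (SD, n = 8) on Certes arrays. If a wider array stretches all its ratios alike, contigs above the pool move up on it. With the deposited scale a direction shared by the listed contigs and the array width cannot be told apart. The part of array width was not tested. Among the 4 listed contigs with the brightest pool, the Gironde mean was the lower one in all 4, with differences of -1.26 to -0.008 and none past an adjusted p of 0.05 (limma, 0.525 to 0.999). Above the median pool brightness of the array, only 26.5% of all contigs had the higher mean in Gironde. Of the 46 listed contigs there, 26 did (56.5%). A lower Gironde mean was thus common over all contigs with a brighter pool. Among the listed contigs there it was not the more frequent direction, and their median difference was 0.02.

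Differences were mostly small for single contigs. Their median size was 0.23 on the log2 scale over the listed contigs, against 0.20 over all contigs. Of the 16 contigs of the array that were more than 1 higher in Gironde, 9 were listed. Of the 16 that were more than 1 lower, 2 were listed. Large differences upward were thus more frequent among the listed contigs than large differences downward, on the deposited scale. For 144 listed contigs (66.4%), against 72.0% of all contigs, the 95% interval stayed between -1 and 1. For the other listed contigs a difference beyond 1 remained within the interval.

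The 5 contigs with the smallest p among those with the higher Gironde mean were contig_33281, contig_2009, contig_15540, contig_12149 and contig_10216. contig_33281 stood at 2.07, 2.16, 1.87, 2.03, 1.69, 2.24 and 1.87 in Gironde gonads 1 to 7, against 1.11, 1.44, 1.49, 1.39, 1.20, 1.78 and 0.99 in Certes gonads 1 to 7 and 1.58 in Certes gonad 8. All Gironde gonads but gonad 5 lay above the highest Certes gonad. The difference was 0.62 ± 0.15 (SE; limma, adjusted p = 0.143), and it was 0.40 with an equal MAD.

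contig_2009 had the largest difference among the listed contigs. It stood at 5.02, 4.30, 4.30, 4.58, 4.47 and 7.52 in Gironde gonads 1, 2, 3, 5, 6 and 7, with no value in gonad 4, against 3.23, 2.79, 2.80, 3.75, 2.84, 4.42 and 1.53 in Certes gonads 1 to 7 and 2.12 in Certes gonad 8. Certes gonad 6 reached into the Gironde range. The difference was 2.10 ± 0.51 (SE; limma, adjusted p = 0.15), 1.60 without Gironde gonad 7 and 1.49 with an equal MAD. The pool stood at 1.28 times the dimmest contig here.

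The other 3 overlapped more. contig_15540 averaged 1.97 ± 0.40 (SD, n = 7) in Gironde, against 1.22 ± 0.41 (SD, n = 8) in Certes, and differed by 0.76 (limma, adjusted p = 0.285). contig_12149 averaged 3.41 ± 0.41 in Gironde, against 2.79 ± 0.21 in Certes, and differed by 0.62 (limma, adjusted p = 0.313), or by 0.19 with an equal MAD. contig_10216 averaged 2.78 ± 0.41 in Gironde, against 2.03 ± 0.45 in Certes, and differed by 0.75 (limma, adjusted p = 0.327), or by 0.39 with an equal MAD.

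Among the contigs with the lower Gironde mean, the scaling enlarged the differences and again none passed. contig_20405 differed by -1.88 ± 0.65 (SE; limma, adjusted p = 0.354), by -2.71 with an equal MAD and by -1.24 without Gironde gonad 4. contig_33143 averaged 1.06 ± 0.22 (SD, n = 7) in Gironde, against 1.46 ± 0.35 (SD, n = 8) in Certes, and differed by -0.40 (limma, adjusted p = 0.425). contig_23259 differed by -1.26 ± 0.60 (SE; limma, adjusted p = 0.525), and by -0.92 without Gironde gonad 2. contig_23669 and contig_18978 differed by -0.45 and -0.34 (limma, adjusted p = 0.525 and 0.554), and contig_18978 by -0.67 with an equal MAD (limma, adjusted p = 0.38). The pool of contig_23669 was the brightest of all listed contigs, and its difference was -0.28 without Gironde gonad 7.

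**Figure D5:**
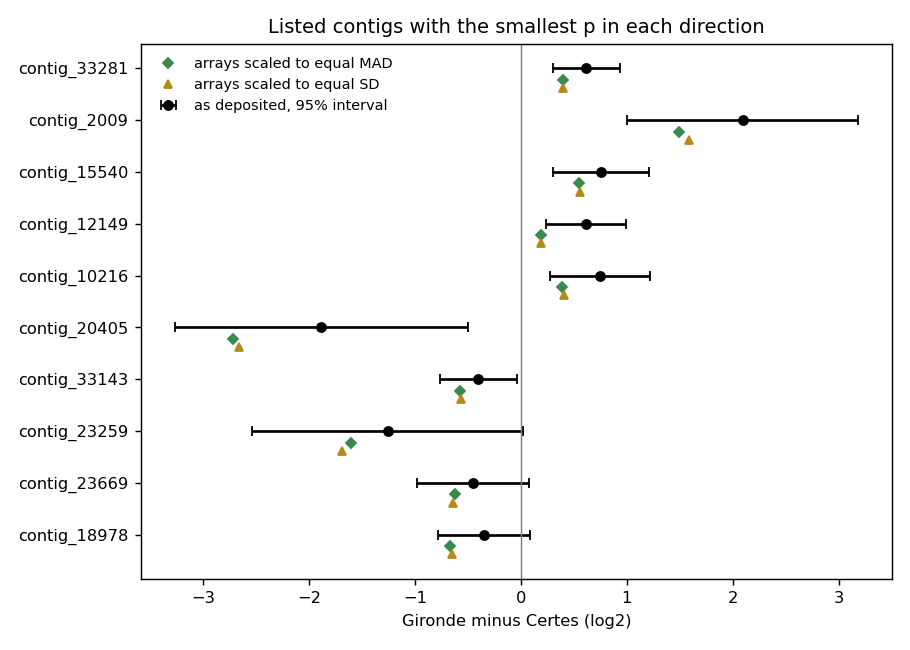
Difference Gironde minus Certes on the log2 scale (horizontal axis) for the 5 listed contigs with the smallest p in each direction, as deposited with the 95% interval of limma (black) and with arrays scaled to an equal MAD (green) or SD (ochre). With scaling all 10 points move to the left, and contig_12149 comes to 0.19 with an equal MAD and 0.20 with an equal SD.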

How the data were processed

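The deposited table of log2 ratios holds 1 value per contig and array, and its columns carry the sample identifiers. Every array's median was 0, so the values had been centred by the authors, and the log base and direction are not stated with it. Base 2 was assumed, since values ran from -10.9 to 9.99. How spots were corrected, averaged and filtered, and with which software, is not given in the sources used here. Of the 14880 cells 121 were empty.

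A second deposited table holds scanner intensity of 2976 spots, 3 per contig, on 15 numbered slides, per the file headers. Brightness of the pool was taken from a single column, the Cy5 foreground of slide 1, with no background taken off. The other 59 columns were not used. Those of the sample channel match no sample label, and those of the reference channel and its background were looked at and enter no result, so whether other slides give the same brightness is not shown. The limit of 3 times the dimmest contig was set after the values were seen. The samples' own signal is unknown, and precision is limited by the number of arrays.

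Contigs were chosen by mean log2 ratios of at least 1 in both sites, empty cells left out. The contigs, lists and tests were chosen with earlier results of these data known. Sites were compared with limma 3.58.1 in R 4.3.3 (lmFit, eBayes, no covariate) on all 15 arrays and 992 contigs, with Benjamini-Hochberg adjustment. On simulated data with real means and SDs, 72% of 100 contigs shifted by 1 and 96% of 100 shifted by 2 were recovered, with 5 false calls. The simulated noise was normal and independent, without the single far values and differing array widths of the real data. Many more contigs differed there than passed in the real data, which makes the adjustment milder. These shares check the fit and do not measure its power for the listed contigs. SDs, correlations and components were computed in Python 3.11.15 (numpy 2.4.6, pandas 2.3.3). Named contigs were the 10 highest, the 3 most and 3 least variable complete contigs, the 5 smallest p in each direction, the 3 nearest either side of the threshold, the 5 highest and 3 lowest correlated pairs and the 10 largest loadings. Alternatives were array scaling, complete or brighter contigs, trend and robust eBayes, array weights, other choosing rules and leaving out each array.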

Additional observations from a re-analysis of the deposited data

Results flagged for a closer look

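Sets of 7 or 8 gonads, fewer where cells were empty, were checked for 1 value far from the rest. They came from 39 named contigs and 5 summaries per array (88 sets), and 9 such values were found where chance gives about 4.4. The 39 include the 3 contigs nearest below the threshold, which are not listed. Contigs named only for a correlated pair were not checked, so values such as 5.82 for contig_17947 in Gironde gonad 4 are not counted. Several of these contigs had been named for their wide spread, which is not independent of such values. contig_9728 was at 8.27 in Gironde gonad 2, where the other measured Gironde gonads were between 4.17 and 4.68, and at 9.99 in Certes gonad 4, where the others were between 1.94 and 5.56. contig_6064 was at -3.37 in Gironde gonad 3, with the others between 2.67 and 4.18. contig_26012 was at -3.43 in Gironde gonad 3, with the others between 2.05 and 2.84, and at -1.34 in Certes gonad 1, with the others between 1.34 and 2.48. contig_2009 was at 7.52 in Gironde gonad 7, with the others between 4.30 and 5.02. contig_38918 was at -2.13 in Gironde gonad 5, with the others between 1.24 and 1.84. contig_15464 was at 1.42 in Certes gonad 5, with the others between 3.19 and 4.64. contig_14918 was at 5.90 in Gironde gonad 4, with the others between 2.49 and 3.78. For all 7 flagged contigs the pool was under 3 times as bright as the dimmest contig, as it was for 98.2% of the listed contigs.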

How the results depend on the processing

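The list of 217 contigs held 217 with site medians, of which 210 were shared, and 217 and 216 with arrays scaled to an equal MAD and SD (214 and 213 shared). It fell to 191 over complete contigs, 112 when every array had to reach 1, 96 at a threshold of 2 and 46 over the brighter contigs of the reference, and was 212 to 219 without 1 array. No listed contig passed the adjusted threshold in any of these fits (0 contigs). Listed contigs at an unadjusted p of 0.05 were 19 higher and 2 lower in Gironde. They became 7 and 15 with an equal MAD, 9 and 13 with an equal SD, and 2 and 2 over the brighter contigs. Over all contigs the counts were 45 and 51 as deposited, 34 and 38 with an equal MAD and 40 and 31 with an equal SD. Over all 495 brighter contigs they were 4 and 45. Without 1 array the listed counts ranged from 17 to 29 higher (29 without Certes 6). The lower ones ranged from 1 to 4 (1 without Gironde 5, Certes 3, Certes 4 or Certes 7, 4 without Gironde 6). Over all contigs these ranges were 38 to 56 higher and 31 to 82 lower. The median difference of 0.19 became -0.086 and -0.075 with equal MAD and SD, and 0.14 to 0.25 without 1 array. Scaling by width takes out, by construction, a shift that comes from width, and the cause was not tested. The median SD in Gironde, 0.54, was 0.47 with an equal SD, 0.40 over the brighter contigs and 0.50 to 0.56 without 1 array. In Certes, 0.51 became 0.38 over the brighter contigs and 0.48 to 0.52 without 1 array. The median correlation of 0.14 became 0.026 with an equal SD, 0.18 over the brighter contigs, and 0.12 to 0.16 without 1 array. None of the 10 contigs named for their difference changed sign, which is not independent of their choice by p. Among 36 named contigs, 9 changed sign with an equal MAD and 9 with an equal SD. No paired analysis was possible because the labels give the sites no shared replicate numbers. The dim pool limits these values, and the samples' own signal is unknown.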

Other observations

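As deposited, 35 contigs averaged 1 or more in Gironde and under 1 in Certes, and 7 the reverse. With arrays scaled to an equal MAD there were 27 and 18, and with an equal SD 27 and 17. These contigs are not among those described above, and the difference between the counts was not tested.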
